A study of Mus musculus with 6 samples.

Results

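The small heat shock proteins are chaperones that share the alpha-crystallin domain. The genes Hspb1, Hspb2, Hspb3, Hspb6, Hspb7, Hspb8, Hspb9, Cryaa, Cryab and Odf1 were taken by gene symbol, and 19 probe sets of the array carried exactly 1 of these 10 symbols, of 45037 probe sets tested. Expression was measured with Affymetrix arrays on total RNA of whole testis from mice aged 5 weeks. The groups were Phf13 knockout (3 arrays) and wild type (3 arrays). The product of Phf13 is a chromatin protein that binds histone H3 methylated at lysine 4 through its PHD finger. The labels name neither the strain nor the deleted part of the gene, and they do not say whether each array came from another animal, so the p-values cover the spread between arrays, which may be of technical origin. The family was chosen by the measured difference of Hspb7 between knockout and wild type. The Hspb7 values are therefore given as a description, and nothing is read from whether they pass a threshold. The other 9 genes belong to it by name.

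Small heat shock proteins assemble into oligomers that hold unfolding proteins in a soluble state until chaperones of the Hsp70 class refold them or they are degraded. Several members act on the cytoskeleton, binding actin, desmin or filamin, and many are strongest in heart, muscle or lens. A pair is known from male germ cells: Hspb9 is expressed mainly in testis, and Odf1, also counted as HSPB10, is a structural protein of the outer dense fibres of the sperm tail.

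Each deposited value is a log2 signal of 1 probe set, a group of short probes for 1 transcript region, so that a difference of 1.00 is a 2-fold change. Probe sets bind with different strength, and their levels are therefore compared between arrays and never between genes. For orientation, array medians ran from 5.22 to 5.29, lower quartiles from 3.66 to 3.76 and upper quartiles from 7.22 to 7.35. Probe set names that end in a_at cover several transcripts of a gene, and those that end in x_at hold probes that may also bind other transcripts. In bulk tissue fewer cells of a type and less RNA per cell cannot be told apart. The target gene went with the labels, with Phf13 at 6.71, 6.60 and 6.55 in the knockout arrays, against 9.55, 9.47 and 9.56 in the wild-type arrays. The control probe sets for 18S RNA split the arrays into 2 sets: knockout 1, wild type 1 and wild type 2 averaged from 12.03 to 12.67, and knockout 2, knockout 3 and wild type 3 from 9.69 to 10.71. For actin, the 3' control lay 0.75 to 0.89 above the 5' control in the first set, where it lay 0.56 to 0.59 above it in the other, which is a sign of RNA or labelling quality. Both genotypes occur in each set, and differences inside the sets are given where they bear on a member.

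Hspb7, the member known from heart and skeletal muscle, where it binds filamin, was lower in knockout testis on every one of its probe sets. The probe set with the highest mean, 1434927_at, stood at 5.83, 6.03 and 5.94 in the knockout arrays, against 7.58, 7.59 and 7.36 in the wild-type arrays. The closest knockout and wild-type arrays were 1.33 apart, and the lowest wild-type array was the one of the second 18S set. Its mean was 5.93 ± 0.10 in knockout and 7.51 ± 0.13 in wild type (SD, n = 3 each), a difference of -1.58 with a standard error of 0.10, so that the knockout signal was 33.5% of the wild-type signal. 1421290_at stood at 5.25, 5.30 and 5.23 in knockout, against 6.25, 6.32 and 6.17 in wild type. Here too the groups lay apart, by 0.87 at the closest, and the difference was -0.99 (SE 0.09).

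The third Hspb7 probe set, 1421289_at, was the most variable. It stood at 4.07, 4.51 and 4.22 in knockout, against 5.76, 5.72 and 5.27 in wild type. Knockout 2 was the highest knockout array and wild type 3 the lowest wild-type array, both of the second 18S set, and the groups were still 0.76 apart. The difference was -1.32 (SE 0.16). All 3 probe sets were between the lower quartile and the upper quartile of the array in knockout, and 1434927_at passed the upper quartile in the 3 wild-type arrays. Inside the first 18S set the differences were -1.75 for 1434927_at, -1.03 for 1421290_at and -1.67 for 1421289_at. Inside the second they were -1.38, -0.91 and -0.91 in the same order. Since every knockout array lay below every wild-type array on all 3 probe sets, the same direction in both sets follows and adds nothing. The size was smaller in the second set. Knockout 1 is the only knockout array of the first set and wild type 3 the only wild-type array of the second.

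**Figure D1:**
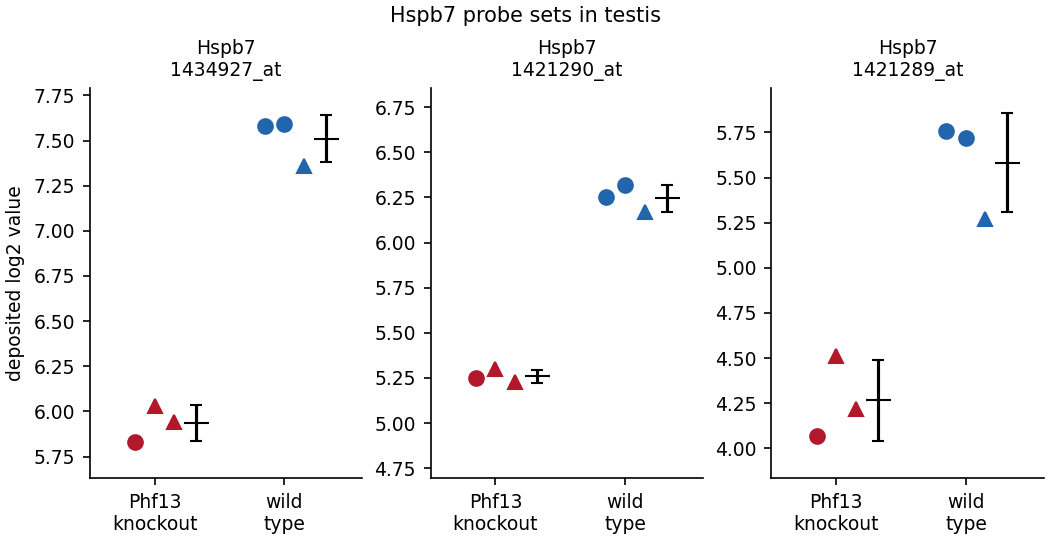
Deposited log2 values of the 3 Hspb7 probe sets, with knockout arrays left of wild-type arrays in each panel and the same span on every vertical axis. Circles are arrays of the first 18S set, triangles those of the second, and the bars are the mean and SD of 3 arrays. On 1434927_at the knockout arrays sit between 5.83 and 6.03 and the wild-type arrays between 7.36 and 7.59.

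Of all 45037 probe sets tested, 0.0444% had a limma adjusted p under 0.05 as lower and 0.0555% as higher. The 3 probe sets of Hspb7 were among those lower, and since Hspb7 was chosen for this contrast nothing is read from that count. Of the 16 probe sets of the other 9 genes, 0 passed in limma, with adjusted p from 0.22 to 1. At an unadjusted p under 0.05, 5 of these 16 were higher and 0 were lower, where all probe sets tested had 6.81% higher and 8.31% lower, 15.1% in all. The 5 were probe sets of Hspb1, Hspb2 and Cryab only, and probe sets of 1 gene are not independent of each other. The median difference of the 16 was 0.06, against 0.00 over all probe sets, and 12 differences were above 0 and 3 below it. The groups did not overlap for 6 of the 16 as higher and 2 as lower, against 8.62% and 10.7% of all probe sets.

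**Figure D2:**
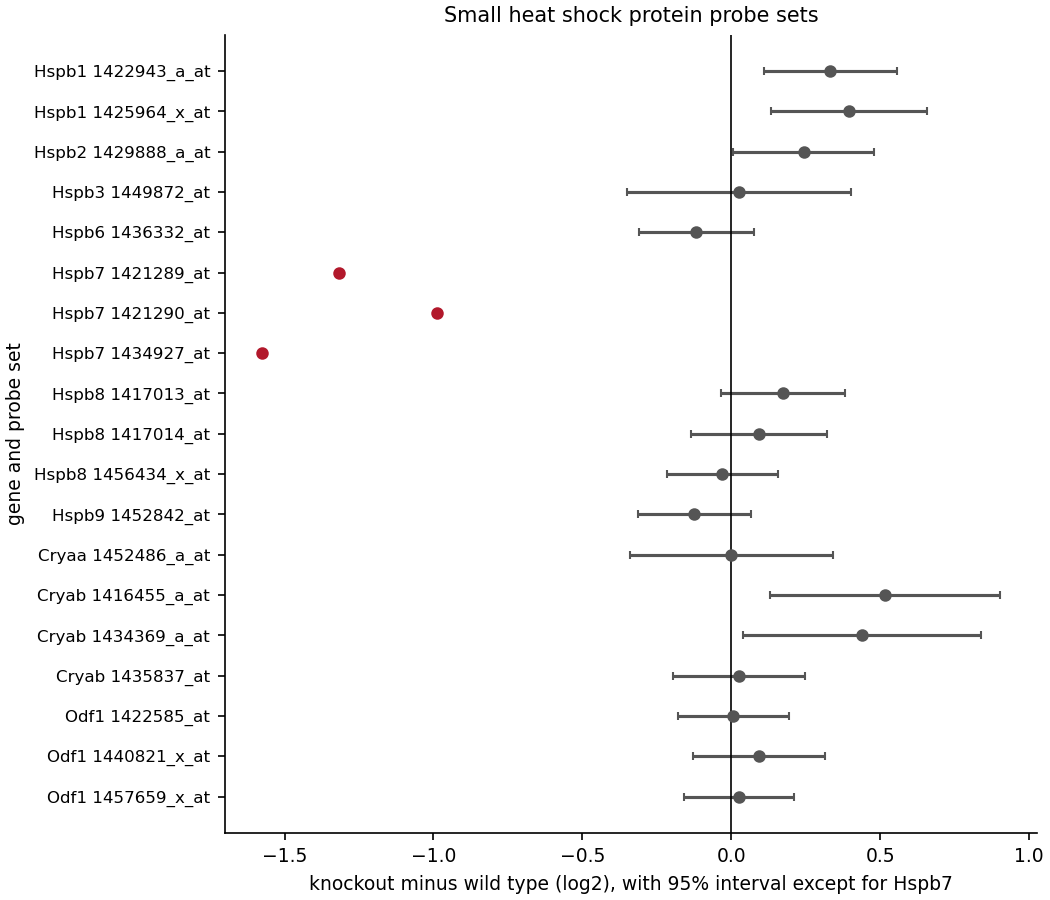
Difference between knockout and wild type on the log2 scale for the 19 probe sets, with the 95% interval of the limma fit for all but Hspb7. Hspb7 is in red and lies between -1.58 and -0.99, while the other 16 lie between -0.12 and 0.52.

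For regulatory context, the 250 bases before the annotated gene start are shown for Hspb7, the member with the lower level in knockout, and for Hspb1, whose knockout arrays lay above its wild-type arrays on both of its probe sets. RefSeq windows of 250 bases before to 50 after the start (assembly GRCm38.p6) were at hand for 7 of the 10 genes. Capitals mark the facing pair GAANNTTC, 1 of the 2 arrangements of the heat shock element to which heat shock factors bind, searched with TTCNNGAA on both strands, where each motif reads the same. The Hspb7 stretch lies at chr4:141420529-141420778 on the plus strand and the Hspb1 stretch at chr5:135887669-135887918 on the plus strand.
Hspb7: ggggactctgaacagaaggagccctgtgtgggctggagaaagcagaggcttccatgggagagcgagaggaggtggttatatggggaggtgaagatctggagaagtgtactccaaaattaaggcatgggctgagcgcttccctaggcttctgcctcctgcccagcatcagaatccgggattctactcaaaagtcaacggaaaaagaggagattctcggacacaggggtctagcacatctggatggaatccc
Hspb1: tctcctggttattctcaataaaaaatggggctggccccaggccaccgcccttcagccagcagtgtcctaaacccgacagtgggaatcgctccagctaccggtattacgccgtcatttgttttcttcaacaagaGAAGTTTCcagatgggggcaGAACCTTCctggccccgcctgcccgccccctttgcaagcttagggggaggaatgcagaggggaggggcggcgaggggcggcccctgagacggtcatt
Neither arrangement was found in the Hspb7 window. The Hspb1 window held GAANNTTC at 2 places, which start 117 and 97 bases before the gene start. Over all 32851 windows of this length, 7.86% held GAANNTTC, 8.52% held TTCNNGAA and 15.06% held either. In the family 4 of 8 windows held 1 of them, from Hspb1, Hspb3, Hspb6 and Hspb8. The Hspb7 window held 6 CpG, and 56.4% of all windows held at least as many. These matches describe the letters of the windows and are not binding sites.

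The same letters, GAAGTTTC, stood in 1 window each of Hspb1, Hspb6 and Hspb8, while 1.21% of all windows held them on either strand. This spacer was singled out because it recurred among the matches, so nothing is read from that share. The 30 bases around the match are shown for Hspb6 (chr7:30553170-30553199, plus strand, starting 120 bases before the second of its annotated gene starts) and for Hspb8 (chr5:116422844-116422873, minus strand, starting 2 bases after the gene start), and for Hspb3 (chr13:113663882-113663911, minus strand, starting 224 bases before the gene start) with its own spacer letters.
Hspb6: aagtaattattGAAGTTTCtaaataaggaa
Hspb8: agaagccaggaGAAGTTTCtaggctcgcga
Hspb3: ctccccgaatgGAATTTTCaggcagaggga
Among the genes with a match, Hspb1 had differences of 0.33 and 0.40 on its probe sets, with neither past limma's adjusted threshold. Hspb6 had a difference of -0.12, Hspb3 of 0.03, and the 3 probe sets of Hspb8 from -0.03 to 0.17. The limma intervals of Hspb6, Hspb3 and Hspb8 ran from negative to positive values, so no direction is read from them. Whether a match bears on these differences was not tested.

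Hspb1 encodes the widely expressed member that is phosphorylated under stress and binds actin filaments. On 1422943_a_at it stood at 9.81, 9.90 and 10.01 in the knockout arrays, against 9.65, 9.46 and 9.61 in the wild-type arrays. On 1425964_x_at it stood at 9.11, 9.42 and 9.45 in knockout, against 8.98, 8.83 and 8.98 in wild type. On both probe sets the lowest knockout array, knockout 1, was above the highest wild-type array, by 0.16 and 0.13. The differences were 0.33 (95% interval 0.11 to 0.56) and 0.40 (0.14 to 0.66), with limma adjusted p = 0.221 and adjusted p = 0.22. Neither passed the threshold over all probe sets. Inside the first 18S set the differences were 0.26 and 0.21, and inside the second 0.34 and 0.46.

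Cryab, a lens and muscle chaperone that binds desmin, had positive differences on its 3 probe sets, the third much smaller than the others. 1416455_a_at stood at 4.67, 4.64 and 5.24 in knockout, against 4.47, 4.15 and 4.38 in wild type. 1434369_a_at stood at 4.78, 5.22 and 5.56 in knockout, against 4.76, 4.73 and 4.75 in wild type. Knockout 3 was the highest array on both, and on the second one knockout 1 lay only 0.02 above the highest wild-type array. The differences were 0.52 (95% interval 0.13 to 0.90) and 0.44 (0.04 to 0.84), with limma adjusted p = 0.247 and adjusted p = 0.298. Without knockout 3 they were 0.32 and 0.25, and without knockout 1 the second was 0.64. For 1434369_a_at the difference was 0.04 inside the first 18S set and 0.64 inside the second. The third probe set, 1435837_at, lay below the lower quartile on all 6 arrays, at 2.65, 2.55 and 2.69 in knockout, against 2.71, 2.47 and 2.63 in wild type. At this level its groups overlapped, with a difference of 0.03 (95% interval -0.20 to 0.25).

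Hspb2 binds the myotonic dystrophy protein kinase and lies next to Cryab on chromosome 9, with 0 protein-coding genes between them in RefSeq. It stood at 5.59, 5.65 and 5.53 in knockout, against 5.47, 5.17 and 5.40 in wild type. The groups were 0.06 apart, with wild type 2 the lowest array. The difference was 0.24 (95% interval 0.01 to 0.48), with limma adjusted p = 0.321. Without wild type 2 it was 0.16. Hspb3, which assembles with Hspb2 in muscle, stood at 4.30, 3.87 and 3.66 in knockout, against 3.86, 3.80 and 4.09 in wild type. Its knockout arrays spanned the wild-type arrays, and the difference of 0.03 (95% interval -0.35 to 0.40) was 0.47 inside the first 18S set and -0.33 inside the second.

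**Figure D3:**
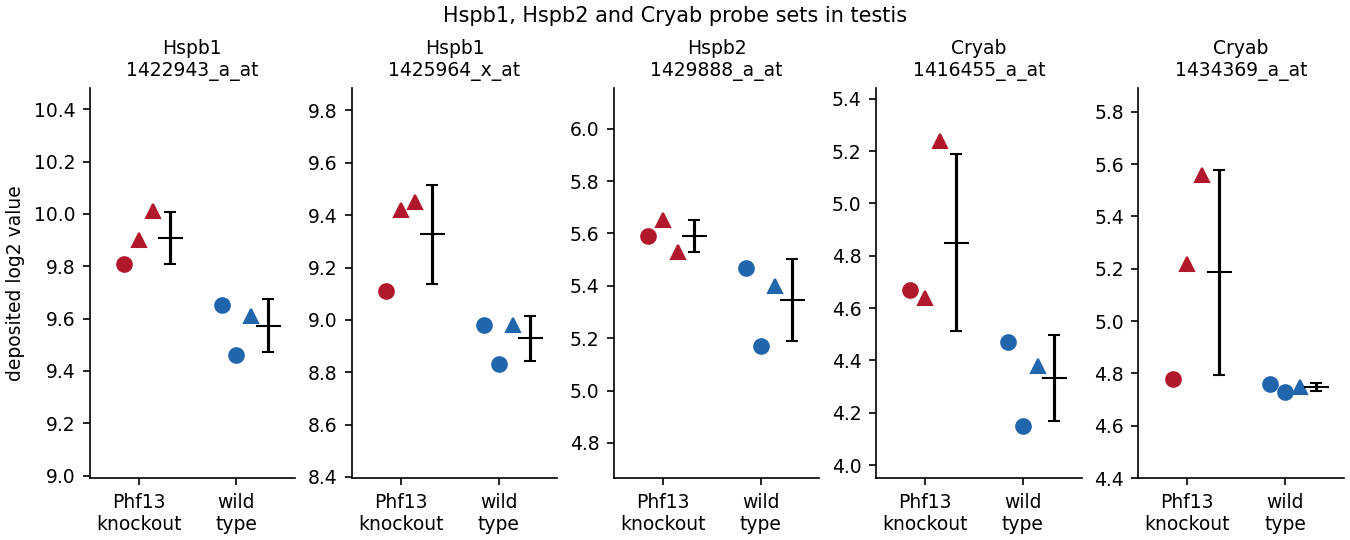
Deposited log2 values of the 5 probe sets of Hspb1, Hspb2 and Cryab with an unadjusted limma p under 0.05, with knockout arrays left of wild-type arrays and the same span on every vertical axis. Circles and triangles are arrays of the first and second 18S set, and bars are the mean and SD of 3 arrays. The groups do not overlap, yet on Cryab 1434369_a_at knockout 1, at 4.78, stands next to the wild-type arrays at 4.73 to 4.76.

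Marker lists of several cell types also had positive medians, and their part in the differences of Hspb1 and Cryab was not tested. All 11 measured Sertoli markers had positive differences, with a median of 0.42, and the mean of the list ran from 8.77 to 8.87 in knockout and from 8.41 to 8.46 in wild type. For 4 fat markers the median was 0.71 and the mean ran from 6.26 to 6.85 in knockout and from 5.33 to 6.04 in wild type. Fabp4, a lipid binding protein of fat, macrophages and capillaries, stood at 6.89, 7.93 and 8.02 in knockout, against 5.47, 4.23 and 6.51 in wild type. Lpl, the lipase that frees fatty acids from lipoproteins, stood at 6.51, 7.64 and 7.68 in knockout, against 6.14, 6.21 and 6.44 in wild type, and the lipid droplet gene Cidec at 3.77, 3.58 and 3.43 in knockout, against 3.20, 3.13 and 3.24 in wild type. The groups of these 3 genes did not overlap, though Cidec lay below the lower quartile on 5 of the 6 arrays. The adipocyte hormone gene Adipoq stood at 7.87, 8.06 and 8.26 in knockout, against 7.81, 7.76 and 7.95 in wild type, and its groups overlapped. The 7 macrophage markers had a median of 0.35, with list means from 6.50 to 7.60 in knockout and from 6.75 to 7.10 in wild type, and the 5 Leydig markers had a median of 0.20, with 8.51 to 9.04 in knockout and 8.38 to 8.72 in wild type. For 8 smooth muscle and peritubular myoid markers 7 differences were above 0, with list means from 7.07 to 7.15 in knockout and from 6.92 to 6.97 in wild type. Inside the first 18S set the macrophage median was -0.34, with 6 of 7 genes below 0, while inside the second it was 0.35. The Leydig median was -0.09 inside the first and 0.18 inside the second. The medians of the other lists were above 0 inside both, at 0.36 and 0.40 for Sertoli, 0.47 and 0.74 for fat, and 0.05 and 0.15 for smooth muscle and peritubular myoid markers. None of the 35 genes in these 5 lists passed limma's adjusted threshold, while 14 were higher at an unadjusted p under 0.05, where 8.58% of all genes were. These 5 lists had the highest medians of the 11, so the direction and the size of that count follow from the choice. Endothelial and spermatogonia markers also had positive medians, 0.11 and 0.10, while that of spermatocyte markers was -0.10. The spermatogonia median was -0.105 inside the first 18S set and 0.095 inside the second. In each list left out of the count, 0 genes were higher at that p. Lower at that p were 0 of the 35 genes, where 1587 of all 18193 genes were. In the lists left out, 2 spermatocyte, 1 spermatogonia and 1 striated muscle marker were lower at that p. None of the 11 lists of cell type markers had a gene past the adjusted threshold.

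The other muscle and stress members differed less. Hspb6, which in smooth muscle is phosphorylated by cyclic nucleotide dependent kinases, stood at 8.06, 8.18 and 8.17 in knockout, against 8.27, 8.21 and 8.28 in wild type. The groups were 0.03 apart, with a difference of -0.12 (95% interval -0.31 to 0.08; limma adjusted p = 0.548). Hspb8, which works with the co-chaperone Bag3 in the disposal of damaged filaments, differed by 0.17 on 1417013_at (95% interval -0.03 to 0.38), by 0.09 on 1417014_at (-0.13 to 0.32) and by -0.03 on 1456434_x_at (-0.22 to 0.16). On 1417013_at its values ran from 4.50 to 4.66 in knockout and from 4.32 to 4.46 in wild type, so that the groups were 0.04 apart. On its other probe sets the groups overlapped. Cryaa, the lens form of alpha-crystallin, stood at 4.95, 4.64 and 4.35 in knockout, against 4.55, 4.64 and 4.75 in wild type. Its groups had the same mean, 4.65, and the 95% interval of the difference ran from -0.34 to 0.34.

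The germ cell members were bright and close between the genotypes. Hspb9 stood at 12.55, 12.62 and 12.56 in knockout, against 12.71, 12.74 and 12.65 in wild type. All knockout arrays lay below all wild-type arrays, by 0.03 at the closest, and the difference of -0.12 (95% interval -0.31 to 0.07) had a limma adjusted p = 0.513. Odf1 stood at 12.86, 12.85 and 12.84 in knockout, against 12.83, 12.80 and 12.90 in wild type on 1422585_at. The groups overlapped, and the difference was 0.01 (95% interval -0.18 to 0.19). Its other probe sets, 1440821_x_at and 1457659_x_at, differed by 0.09 (-0.13 to 0.31) and by 0.03 (-0.16 to 0.21). Array maxima lay between 13.98 and 14.01, and whether differences are compressed at the level of Odf1 and Hspb9 was not measured. Markers of spermatids, which transcribe Odf1, had a median difference of 0.01 over 12 genes, with list means from 12.51 to 12.53 in knockout and from 12.51 to 12.56 in wild type. The 8 spermatocyte markers had a median of -0.10, with 11.27 to 11.32 in knockout and 11.36 to 11.43 in wild type, and the 8 spermatogonia markers a median of 0.10, with 6.50 to 6.79 in knockout and 6.57 to 6.64 in wild type.

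Genes that work with the family were read from lists, 1 probe set per gene. Of 25 chaperone partners and heat shock factors 23 were measured, with Hsf1 and Hsp90ab1 missing. Of these 23, 0 passed limma's adjusted threshold, where 0.137% of all 18193 genes did. At an unadjusted p under 0.05, 1 was lower and 4 were higher, against 17.3% of all genes in either direction. The median difference of the list was 0.02, against 0.01 over all genes. Bag3, the partner of Hspb8, stood at 8.66, 8.80 and 8.74 in knockout, against 9.05, 9.41 and 9.22 in wild type. The groups did not overlap, with a difference of -0.49 (SE 0.11) and limma adjusted p = 0.179. Hspd1, the mitochondrial chaperonin, stood at 9.22, 9.40 and 9.49 in knockout, against 9.12, 9.04 and 9.09 in wild type, a difference of 0.29 (limma adjusted p = 0.256). The other 3 genes that were higher at an unadjusted p under 0.05, named after their values were seen, were its partner Hspe1 at 0.33, the constitutive Hsp70 gene Hspa8 at 0.21 and the stress-induced Hsp70 gene Hspa1b at 0.37.

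Of 18 genes of sarcomere and muscle filaments, the partners of the muscle members, 0 passed the adjusted threshold in limma. At an unadjusted p under 0.05, 3 were higher and 1 was lower, against 17.3% of all genes in either direction, and the list median was 0.09. Pdlim3, an actinin-binding protein of muscle, differed by 0.59 (SE 0.15) and cardiac actin Actc1 by 0.39 (SE 0.15). Tnnt2, cardiac troponin T, at 0.38 and the Z-disc gene Myot at -0.24 were the others, named after their values were seen. Myot lay below the lower quartile on all 6 arrays. Markers of striated muscle lay at list means from 4.62 to 4.75 in knockout and from 4.66 to 4.81 in wild type, with a median difference of 0.02 over 8 genes and Tnnc2 at -0.32.

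Of 18 measured genes of outer dense fibres, fibrous sheath and sperm tail, the structures around Odf1, 0 passed the adjusted threshold and 1 had an unadjusted p under 0.05 in limma. The list median was 0.00. The 1 gene was Rnf138rt1, a RING finger gene put on the list without a known place in these structures, at 0.57. The gene with the next smallest p was Spag5, at -0.11. Epididymis and endothelial markers overlapped between the genotypes. The list means ran from 3.68 to 3.71 in knockout and from 3.57 to 3.79 in wild type for 6 epididymis genes, of which 4 lay below the lower quartile on all arrays, and from 4.53 to 4.71 in knockout and from 4.47 to 4.58 in wild type for 6 endothelial genes.

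Hspb7 and Phf13 both lie on chromosome 4, with 128 named protein-coding genes between them in RefSeq. Of the 5 named protein-coding genes on each side of Hspb7, 7 of 10 were analysed. None of them passed limma's adjusted threshold, where 0.137% of all genes did. Of the 7, 2 were lower and 0 higher at an unadjusted p under 0.05, against 17.3% of all genes in either direction. On the side before Hspb7, Arhgef19, Epha2 and Fam131c differed by 0.00, -0.01 and -0.02. On the side after it, Zbtb17, which encodes a Myc-binding zinc finger factor, stood at 7.52, 7.54 and 7.67 in knockout, against 7.88, 7.77 and 7.85 in wild type, a difference of -0.26 (limma adjusted p = 0.257). Tmem82 differed by -0.23 (limma adjusted p = 0.267) and Fblim1, a filamin-binding adaptor, by 0.10. The groups of Zbtb17 and Tmem82 did not overlap. Spen, a transcriptional corepressor, stood at 7.23, 6.70 and 6.41 in knockout, against 7.87, 7.62 and 6.77 in wild type, and its groups overlapped. The 7 analysed neighbours thus lay between -0.64 and 0.10, with Hspb7 at -1.58.

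**Figure D4:**
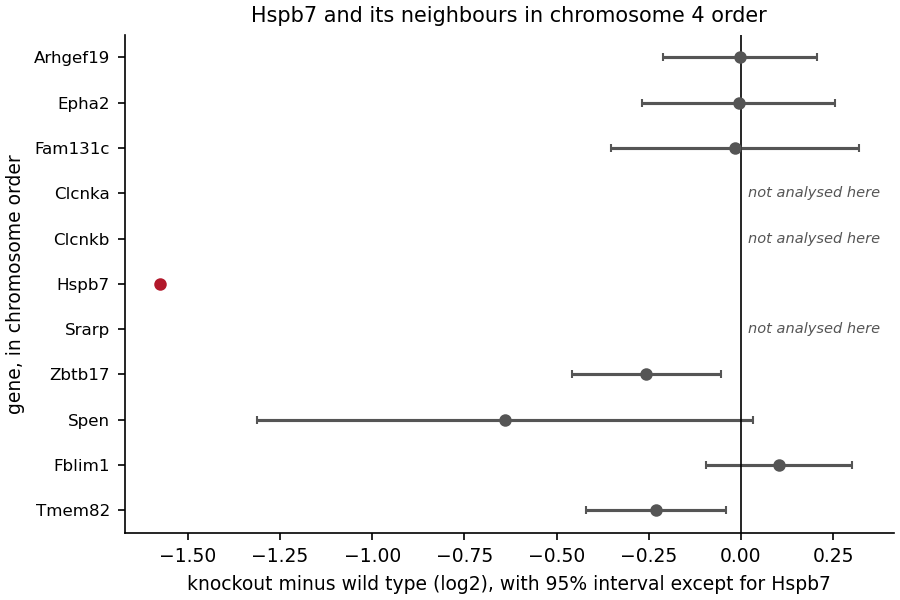
Difference between knockout and wild type on the log2 scale, for Hspb7 (red, with no interval) and, with the 95% interval of the limma fit, the 5 named protein-coding genes on each side of it in chromosome order. Hspb7 lies at -1.58 and the other analysed genes between -0.64 and 0.10.

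The pattern of Hspb7 over the 6 arrays was set against 18192 other genes by the root mean square distance after each gene's own mean was taken away. The median distance was 0.807. Genes with only a Gm, LOC or Rik symbol were left out of the ranking, though not of the median, and may have lain closer. Among the rest, the nearest were Tnfaip2 at 0.228, the telomere zinc finger gene Zbtb48 at 0.325 and Fcmr, a receptor for IgM, at 0.342. Next came the F-box gene Fbxo44 at 0.346 and the pseudogene Pisd-ps3 at 0.367. All 5 were lower in every knockout array than in every wild-type array, with differences of -1.14, -0.97, -1.01, -0.95 and -0.85 in that order. Zbtb48 and Fbxo44 lie on chromosome 4, as do Hspb7 and the targeted gene Phf13. Whether this shared chromosome bears on their differences was not tested. Tnfaip2 and Pisd-ps3 were read from probe sets of the x_at kind. Distances of this kind favour genes with the same step between the genotypes, which chose Hspb7, and were not tested.

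**Figure D5:**
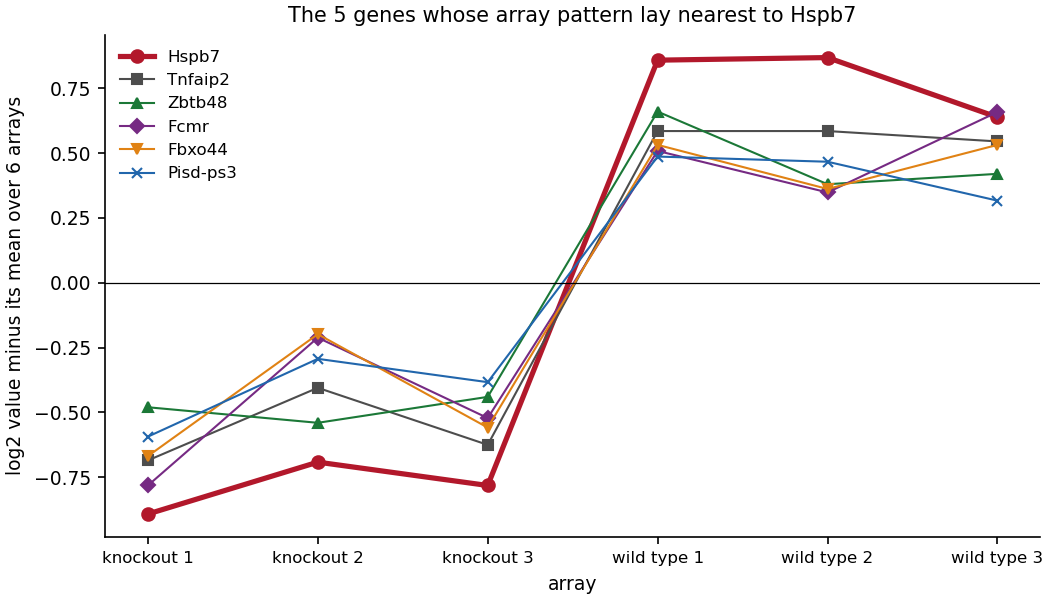
Log2 value minus its mean over the 6 arrays for Hspb7 (1434927_at) and the 5 ranked genes with the smallest distance to it. Gm, LOC and Rik symbols were not ranked, and knockout arrays are left of wild-type arrays. Each gene lies below 0 in the 3 knockout arrays and above 0 in the 3 wild-type arrays.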

How the data were processed

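The authors deposited log2 signals, 1 per probe set and array. The submitters' processing notes name Affymetrix Expression Console 1.4.1, without the method of summarization or normalization or a genome build. That the scale is log2 was taken from the range and the quartiles of the values. From the 45101 probe sets, 64 Affymetrix controls were left out, and 45037 were fitted on genotype with no filter (lmFit and eBayes of limma 3.58.1 in R 4.3.3, two-sided, Benjamini-Hochberg adjustment over all of them, threshold 0.05). Every adjusted p and interval is from this limma fit. Members are the probe sets whose only symbol in the platform annotation is a member. In lists, the probe set with the highest mean stood for a gene, and all list results are counts and medians. Every member was named, Phf13 as the check of the labels, the 5 genes nearest to Hspb7, the genes next to it and, from each list of partners, the 2 genes with the smallest p. Other named genes are said to be named after their values were seen, or are single markers given as examples. Members, lists and the 18S sets were chosen with earlier results of these data known. The fit was tested on simulated data. Precision is limited by 3 arrays per group. The smallest root mean square difference between 2 arrays was 0.171, so none repeated another. Alternatives were the replicate number, title codes and 18S sets as blocks, a filter at the median level, median centring, quantile normalization, array weights, a trend of the variance with intensity under robust moderation, other thresholds and leaving out each array.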

Additional observations from a re-analysis of the deposited data

How the results depend on the processing

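The count of 3 member probe sets lower at the threshold, all of Hspb7, was 1 with runs of consecutive title codes as a block and ran from 1 (without wild type 2 or knockout 3) to 3 when each array was left out. Hspb7 was chosen for this contrast, so nothing is read from these counts. Over the alternative fits its differences ran from -1.65 to -1.52 on 1434927_at, from -1.02 to -0.95 on 1421290_at and from -1.47 to -1.22 on 1421289_at. The count of member probe sets called higher was 0 in every alternative except array weights, where 3 passed, both of Hspb1 and 1434369_a_at of Cryab. Of all probe sets tested, 45 passed. This count was 16 with the title code block, 79 among probe sets above the median level, 110 with an intensity trend and robust moderation, 3186 with array weights, 21 at a threshold of 0.01 and 100 at 0.1, and it ran from 12 without wild type 2 to 1176 without wild type 3. With the replicate number as a block it was 28, and 2 of the Hspb7 probe sets passed. Deviations of same-numbered samples correlated at 0.258, 0.066 and 0.118, so the numbers are not taken to pair the samples. Compared at 4 decimals, differences close to 0 turned their sign in 10 of 216 fits of the other members. That of Hspb3 was -0.023 with array weights and ran from -0.15 to 0.17 when each array was left out. That of Cryab 1435837_at was -0.0039 with quantile normalization and ran from -0.04 to 0.08 when each array was left out. That of Odf1 1422585_at was -0.0057 with the title code block and -0.0050 with the 18S block, and ran from -0.015 to 0.035 when each array was left out. Of the 5 genes nearest to Hspb7, 4 were shared when 1421289_at stood for it and 3 when 1421290_at did. The cause of these shifts was not tested. Without detection calls, no background level could be set for the dim probe sets.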
